A study of Homo sapiens with 15 samples.

Results

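The 10 genes HSPA1A, HSPA1B, HSPA8, HSP90AA1, HSPH1, DNAJB1, HSPB1, HSPD1, HSPE1 and BAG3 of the cytosolic and mitochondrial heat shock response were followed in HGrC1 granulosa cells. They were taken by symbol from a table of 37787 genes, in which all 10 were found and all 10 passed the filter on low counts. Heat shock proteins are molecular chaperones that bind unfolded proteins and let them fold, move to their compartment or be degraded. HSP70 proteins hold short exposed stretches of a client in a cycle driven by ATP, J-domain proteins such as DNAJB1 deliver the client, and nucleotide exchange factors such as HSPH1 and BAG3 release it. HSP90 takes over clients such as kinases and steroid receptors, small heat shock proteins such as HSPB1 hold aggregating proteins in solution, and HSPD1 with its lid HSPE1 forms the folding chamber of the mitochondrial matrix. Under heat or proteotoxic stress the transcription factor HSF1 binds heat shock elements in the promoters of the inducible members, whereas HSPA8 is abundant without stress.

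HGrC1 is an immortalized human granulosa line without luteinization. Its own FOXL2 gene is wild type, so the mutant form came from the plasmid alone, and cells were taken at passage 14. Cells were transfected for 4 h with a lipid reagent, kept for a further 24 h in serum-free medium, and their RNA was read as 75-base single-end reads. The 5 conditions of 3 libraries each (replicates A, B and C) were as follows. Vectors received empty plasmids. FOXL2WT received SMAD3 with wild-type FOXL2, a forkhead factor that maintains granulosa cell identity, and FOXL2C134W received SMAD3 with the mutant form of adult granulosa cell tumors. FOXL2WT + FOXO1 and FOXL2C134W + FOXO1 received in addition the constitutively active FOXO1-3A. All 12 libraries outside Vectors therefore carried SMAD3, and SMAD3 was not separated from FOXL2 in any comparison. Transfection was transient, and no condition was heated or given a protein-damaging drug.

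The promoters of 5 members are shown first, because the members differed in how they moved and several carry the sequence that HSF1 recognises. All 10 members matched the RefSeq promoter table (GRCh38), in 14 windows that run from 250 bases before a transcription start to 50 bases after it. A heat shock element is built of alternating GAA and TTC units. A pair of facing units was searched as GAANNTTC or TTCNNGAA, each of which reads the same pattern on both strands, and pairs were allowed to share a unit. HSPA1A and HSPA1B lie in tandem on chromosome 6. Their stretches below cover chr6:31815423-31815527 and chr6:31827619-31827723, plus strand, positions -120 to -16 and -119 to -15 from the start. Capitals mark the pair of units, an inverted CCAAT box (ATTGG) and the TATA box.
HSPA1A: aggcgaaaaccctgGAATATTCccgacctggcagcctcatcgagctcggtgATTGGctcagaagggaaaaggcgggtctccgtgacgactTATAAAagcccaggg
HSPA1B: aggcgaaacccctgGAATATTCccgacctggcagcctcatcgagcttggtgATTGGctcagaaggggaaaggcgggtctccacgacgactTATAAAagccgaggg
The sequences of the pair differ at 6 of 105 bases (94.3% identical), and none of the 6 falls in a marked motif.

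The constitutive HSPA8, the HSP90 gene HSP90AA1 and the J-domain gene DNAJB1 are shown for comparison with HSPA1A and HSPA1B, with only the pairs of units in capitals. The HSPA8 stretch (chr11:123062173-123062197, minus strand, positions -61 to -37) and the HSP90AA1 stretch (chr14:102087099-102087138, minus strand, -94 to -55) each hold 3 alternating units in a row. The DNAJB1 stretch (chr19:14518431-14518480, minus strand, -83 to -34) holds separate pairs.
HSPA8: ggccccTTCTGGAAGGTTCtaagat
HSP90AA1: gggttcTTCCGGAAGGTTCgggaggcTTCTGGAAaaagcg
DNAJB1: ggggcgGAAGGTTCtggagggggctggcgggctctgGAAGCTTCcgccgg
Exons of the minor transcripts HSPA8-202 and HSPA8-211 also cover the HSPA8 stretch, and no annotated exon covers the other 4. A pair of units occurred in at least 1 window of 7 members (HSPA1A, HSPA1B, HSPA8, HSP90AA1, DNAJB1, HSPB1 and HSPD1). By window, 8 of the 14 windows of members held it (57.1%), beside 13.5% of all 35116 windows of the table. The windows of HSPH1, HSPE1 and BAG3 held none of these letters. A run of 3 alternating units was found for HSPA8, HSP90AA1 and HSPD1 and in 0.49% of all windows. All pairs and runs of HSPD1 lay in its second window (chr2:197499791-197500090), and its first window held none. The HSPE1 window (chr2:197500129-197500428) does not reach that second window, so matches there were counted for HSPD1 alone. The annotated HSPE1 gene starts at chr2:197500140 on the plus strand, close to that second window, so these matches lie near HSPE1 as well. A match is a description of letters and was not taken as a site in use.

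The libraries held 14962245 to 25339094 estimated counts. The transfected genes followed the labels. FOXL2 was at 8.28 to 9.54 CPM (counts scaled to the library total) in Vectors and at 121 CPM or more elsewhere. It reached 561 ± 5.9 CPM in FOXL2WT and 147 ± 27 in FOXL2C134W (SD, n = 3). SMAD3 stood at 249 ± 12 CPM in Vectors, 2768 ± 154 in FOXL2WT, 843 ± 37 in FOXL2C134W, 969 ± 11 in FOXL2WT + FOXO1 and 391.7 ± 16.9 in FOXL2C134W + FOXO1. FOXO1 stood at 11.99 to 13.15 CPM on average in the 3 conditions without FOXO1-3A, 117 ± 14 in FOXL2WT + FOXO1 and 43.2 ± 4.1 in FOXL2C134W + FOXO1. The conditions thus differed in the amount of transfected message as well as in the form of FOXL2, also between the 2 conditions with FOXO1, and these cannot be told apart. Among 17 granulosa markers, GATA4 (129 to 154 CPM), WT1, KRT8 and KRT18 were present, whereas FSHR was at 0 in all 15 libraries and AMHR2, CYP19A1, INHA and ESR2 stayed at 7 counts or fewer. Of the 12 granulosa markers tested, 2 were called in FOXL2WT against Vectors and 1 in each other condition. HSD17B1 was higher and GATA4 lower in FOXL2WT, CYP11A1 lower in FOXL2WT + FOXO1 and KRT18 higher in both FOXL2C134W conditions. The shares of all genes called were 6.07% in FOXL2WT, 14.7% in FOXL2C134W, 3.78% in FOXL2WT + FOXO1 and 9.33% in FOXL2C134W + FOXO1. The 9 markers of other cells summed to 95.7 to 126 CPM, nearly all of it CD68, and PTPRC, CD3E, DDX4 and LHCGR were at 0 to 5 counts. Replicates within a condition differed by more than sampling noise in all 15 pairs (chi-square over degrees of freedom 2.21 to 8.65), so no library was a copy of another. Nothing in the labels names separate cultures, so p-values measure the spread between these libraries.

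The heat shock genes took 0.692% to 0.792% of all counts in a library. Per length (TPM, a length-corrected share of transcripts, mean ± SD over 15 libraries), HSPA8, the constitutive cytosolic HSP70, was the most abundant at 2897 ± 191. HSP90AA1 (721 ± 82), HSPB1 (668 ± 55) and HSPD1 (592 ± 44) followed in an order that changed between libraries. HSPE1 came next in every library at 365 ± 14, followed by HSPH1 at 153 ± 25. HSPA1A (99.7 ± 7.3) and DNAJB1 (95.7 ± 4.4) exchanged places between libraries, HSPA1B (79.0 ± 7.9) came after them and BAG3 (40.1 ± 2.8) was lowest in each. In bulk RNA, fewer expressing cells and less RNA per cell cannot be told apart.

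**Figure D1:**
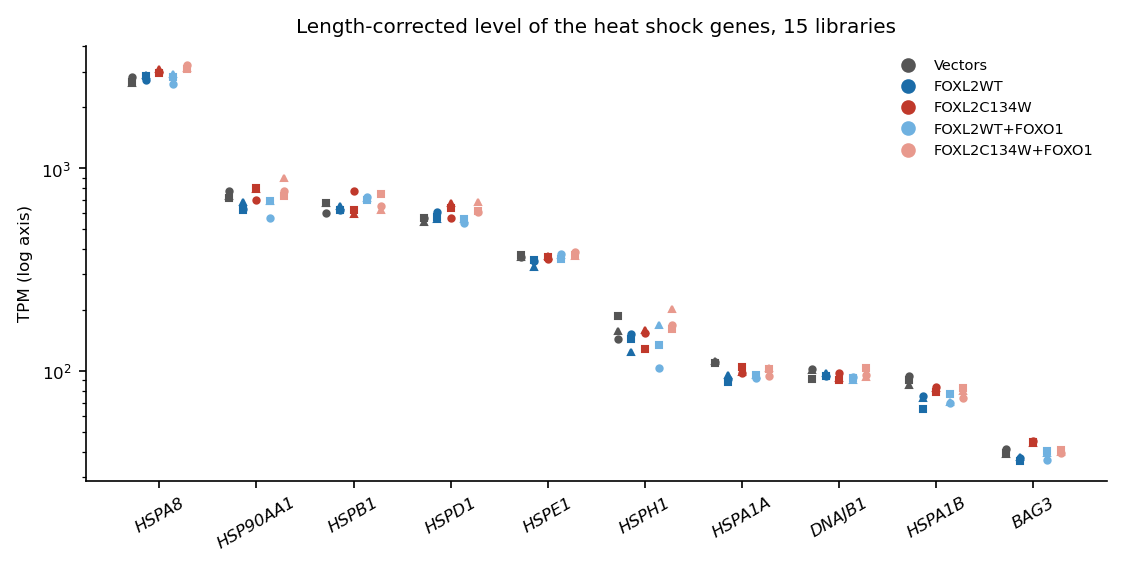
Length-corrected level (TPM, log axis) of each heat shock gene in the 15 libraries, colored by condition, with symbols for replicates A (circle), B (square) and C (triangle). HSPA8 stands apart near 2897 TPM, HSP90AA1, HSPB1 and HSPD1 overlap, and BAG3 is lowest in every library.

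HSPA1A and HSPA1B encode the stress-inducible cytosolic HSP70. Against Vectors, HSPA1A fell in all 4 conditions with SMAD3 and HSPA1B in 3 of them. HSPA1A was at 198, 201 and 206 CPM in Vectors. It was at 168, 164 and 178 in FOXL2WT, 180, 186 and 179 in FOXL2C134W, 185, 174 and 180 in FOXL2WT + FOXO1 and 176, 186 and 186 in FOXL2C134W + FOXO1. Every Vectors library thus stood above each of the other 12, of which the highest reached 186. HSPA1B showed the same order, with 179, 178 and 166 CPM in Vectors, 149, 128 and 144 in FOXL2WT, 163, 147 and 157 in FOXL2C134W, 148, 149 and 139 in FOXL2WT + FOXO1 and 145, 161 and 152 in FOXL2C134W + FOXO1. Here the gap was narrower, from 166 CPM in the lowest Vectors library to 163 in the highest other one. These are 2 of 10 members with all 12 SMAD3 libraries below Vectors, an arrangement found for 4.04% of the 13868 genes tested. Because HSPA1A and HSPA1B share most of their sequence, the 2 are not independent. No member had all 12 above, against 3.14% of the genes tested. The summed markers of other cells moved the same way, from 112 to 126 CPM in Vectors to 95.7 to 107 elsewhere, with CD68 lower in all 4 conditions (log2 -0.22 to -0.27) and the leukocyte gene PTPRC at 5 counts or fewer, and their part in the result was not tested.

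Against Vectors, HSPA1A fell by 15.7% in FOXL2WT (log2 fold change -0.25, SE 0.041, edgeR quasi-likelihood test, Benjamini-Hochberg adjusted p = 0.00121). HSPA1B fell by 19.3% there (-0.31, SE 0.057, edgeR adjusted p = 0.00312). Both calls held when any 1 of the 15 libraries was left out, with an adjusted p of at most 0.0128 and 0.0255. In FOXL2C134W, HSPA1A fell by 10.1% (-0.15, SE 0.040, edgeR adjusted p = 0.0142), and HSPA1B missed the threshold at a similar size (-0.16, SE 0.057, edgeR adjusted p = 0.0595). In FOXL2WT + FOXO1, HSPA1A fell by 10.96% (-0.17, edgeR adjusted p = 0.0249) and HSPA1B by 16.7% (-0.26, edgeR adjusted p = 0.0134). In FOXL2C134W + FOXO1 the decreases were 9.45% for HSPA1A and 12.4% for HSPA1B (log2 -0.14 and -0.19, edgeR adjusted p = 0.0312 and 0.0403). The direct difference between FOXL2C134W and FOXL2WT was 0.09 for HSPA1A (95% interval 0.01 to 0.18) and 0.15 for HSPA1B (0.02 to 0.27), with edgeR adjusted p of 0.160 and 0.116.

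The decreases in the other 3 conditions depended on single libraries. The HSPA1A call in FOXL2C134W was lost without Vectors replicate C (log2 -0.13, edgeR adjusted p = 0.0838) or without FOXL2C134W replicate C (-0.14, 0.0556). In FOXL2WT + FOXO1 it was lost without any 1 of the 3 Vectors libraries or without FOXL2WT + FOXO1 replicate B or C (HSPA1A -0.15 to -0.18, edgeR adjusted p 0.0600 to 0.103). HSPA1B was lost there without Vectors replicate A or B or FOXL2WT + FOXO1 replicate C (-0.23 to -0.25, adjusted p up to 0.0737). In FOXL2C134W + FOXO1, HSPA1A was lost without any 1 of the Vectors libraries or without FOXL2C134W + FOXO1 replicate A or C (-0.12 to -0.16, adjusted p up to 0.134) and with all genes of at least 1 count in any library (-0.14, adjusted p = 0.0598). HSPA1B was lost without Vectors replicate A or B, FOXL2WT replicate C, or FOXL2C134W + FOXO1 replicate A or C (-0.16 to -0.19, adjusted p up to 0.161), and in DESeq2 with transcript length offsets (adjusted p = 0.0733).

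The sequences of HSPA1A and HSPA1B are so close that the split of reads between them is an estimate. Of the 2326 windows of 75 bases in HSPA1A-201, 1716 (73.8%) also occur in HSPA1B-201, as do 70.2% of its own 2443 in the other direction. The share given to HSPA1A ran from 52.4% to 56.4% of the sum and did not separate the conditions. Summed, the pair was at 376 ± 3.5 CPM in Vectors, 311 ± 16.6 in FOXL2WT, 337 ± 4.7 in FOXL2C134W, 325 ± 7.2 in FOXL2WT + FOXO1 and 336 ± 13.0 in FOXL2C134W + FOXO1 (SD, n = 3). Tested as 1 gene, HSPA1A with HSPA1B fell in FOXL2WT (log2 -0.28, SE 0.041, edgeR adjusted p = 0.00039) and in FOXL2C134W (-0.16, SE 0.040, edgeR adjusted p = 0.0118). The sum was also called lower in FOXL2WT + FOXO1 (-0.21) and in FOXL2C134W + FOXO1 (-0.17). Leave-outs were not run on the sum.

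**Figure D2:**
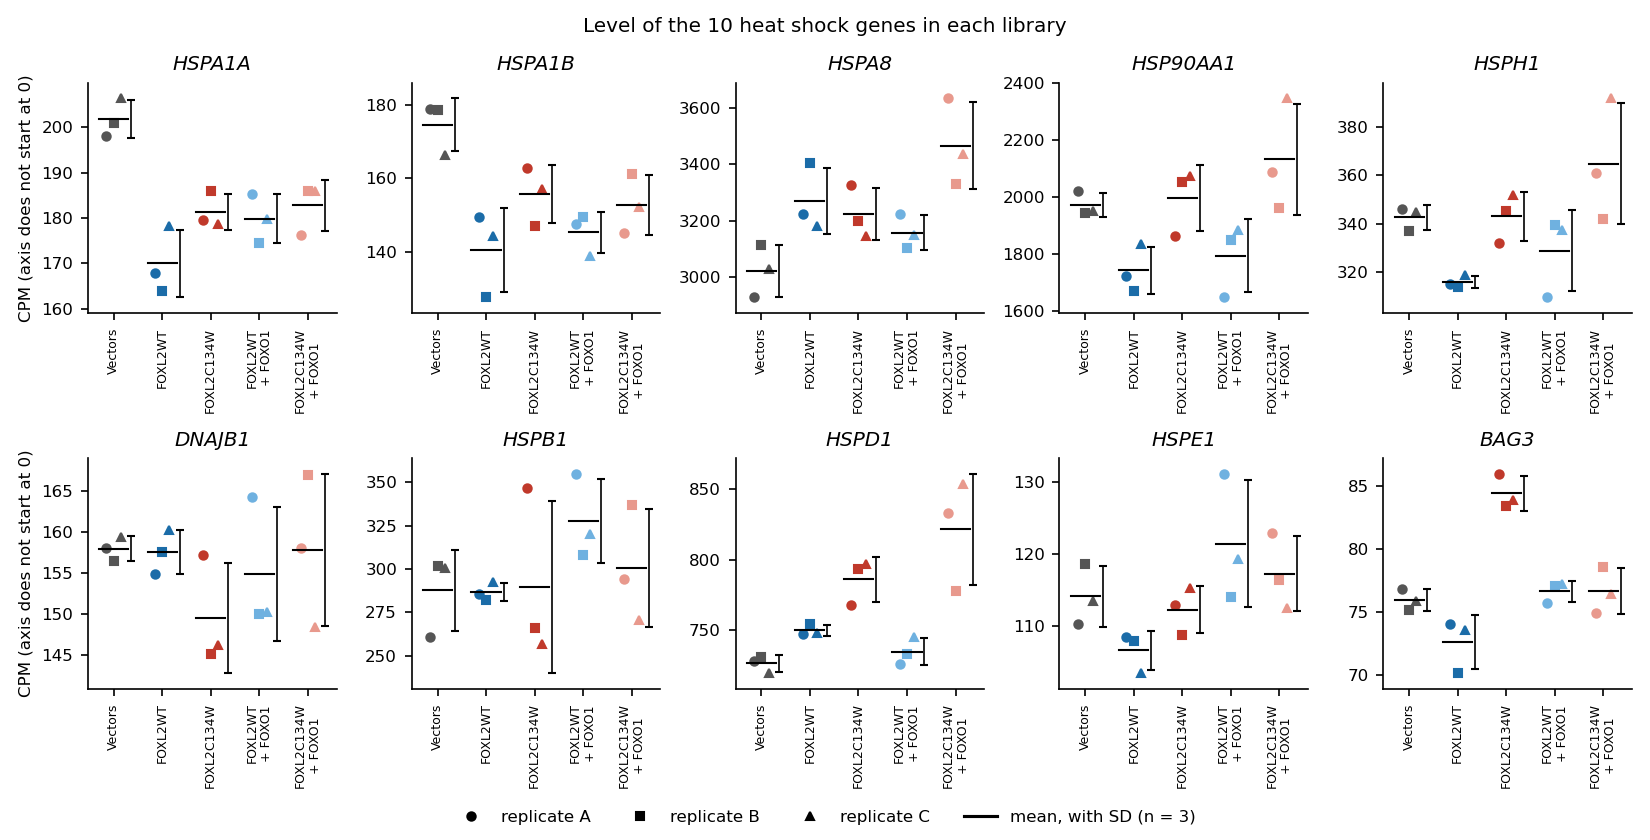
CPM of each heat shock gene in the 3 libraries of each condition (symbols, replicates A, B and C), with the mean as a line and the SD as a bar at its right; axes do not start at 0. HSPA1A and HSPA1B are highest in the Vectors libraries, BAG3 is highest in FOXL2C134W, and HSPD1 is higher in the 6 libraries with FOXL2C134W than in the other 9.

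HSPA8, which carries out most HSP70 folding in unstressed cells, moved the other way. It was at 2929, 3113 and 3029 CPM in Vectors and at 3633, 3330 and 3435 in FOXL2C134W + FOXO1, with no overlap, as for 1 other member (HSPD1) and 14.1% of the genes tested. The means of the other conditions lay between, with libraries at 3223, 3403 and 3181 in FOXL2WT, 3325, 3198 and 3147 in FOXL2C134W and 3223, 3102 and 3148 in FOXL2WT + FOXO1. HSPA8 rose by 14.6% in FOXL2C134W + FOXO1 (log2 0.20, SE 0.038, edgeR adjusted p = 0.00276), and the call held without any 1 library (adjusted p at most 0.0206). Its log2 difference from Vectors was 0.11 in FOXL2WT (edgeR adjusted p = 0.0924), 0.09 in FOXL2C134W (0.121) and 0.06 in FOXL2WT + FOXO1 (0.437). The reads of HSPA8 were shared over 24 transcripts, of which HSPA8-218 took 52.1% and HSPA8-222 took 30.8% on average. All 12 SMAD3 libraries but FOXL2WT + FOXO1 replicate B, at 3102 CPM, stood above the highest Vectors library. Within the HSP70 family the inducible genes were thus lower and the constitutive gene higher in FOXL2C134W + FOXO1 than in Vectors.

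Among the partners of HSP70, BAG3 separated the conditions most. BAG3 joins HSP70 to HSPB proteins and to selective autophagy. It was at 76.8, 75.1 and 75.8 CPM in Vectors, 74.1, 70.1 and 73.6 in FOXL2WT, 85.9, 83.4 and 83.9 in FOXL2C134W, 75.7, 77.0 and 77.2 in FOXL2WT + FOXO1 and 74.9, 78.5 and 76.4 in FOXL2C134W + FOXO1. The 3 FOXL2C134W libraries were the 3 highest of the 15, an arrangement that 2.71% of the genes tested shared and no other member did. BAG3 rose by 16.2% in FOXL2C134W against FOXL2WT (log2 0.22, SE 0.039, edgeR adjusted p = 0.00149), a call that held without any 1 library (adjusted p at most 0.0113). Against Vectors it rose by 11.1% (0.15, SE 0.039, edgeR adjusted p = 0.0117), which was lost without Vectors replicate B (edgeR 0.15, adjusted p = 0.0518) and with all genes of at least 1 count in any library (adjusted p = 0.0549).

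With FOXO1 the levels of BAG3 under the 2 forms of FOXL2 met. FOXL2C134W + FOXO1 stood at 76.6 ± 1.8 CPM and FOXL2WT + FOXO1 at 76.6 ± 0.8 (log2 difference 0.00, 95% interval -0.08 to 0.08). All FOXL2C134W + FOXO1 libraries lay below all FOXL2C134W libraries (log2 -0.14, SE 0.039, edgeR adjusted p = 0.107), and all FOXL2WT + FOXO1 libraries lay above all FOXL2WT libraries (0.08, SE 0.040, edgeR adjusted p = 0.582). The first separation was shared by 7.72% of the genes tested, the second by 6.89% (3 members) and both together by 1.41%, and BAG3 was the 1 member with both. The difference between the 2 effects was -0.22 (SE 0.055, 95% interval -0.33 to -0.10, unadjusted p = 0.00101). It did not pass the threshold over all genes (edgeR adjusted p = 0.0586), passed it in DESeq2 (adjusted p = 0.0334), and passed it in edgeR when FOXL2C134W + FOXO1 replicate B was left out (-0.24, adjusted p = 0.0343). Percent of variance lying between conditions was 90.4 for BAG3, the highest of the members, against a median of 43.96 over the genes tested.

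DNAJB1, the J-domain partner that is strongly induced by heat in many cells, was close to level. Its condition means ran from 150 ± 6.7 CPM in FOXL2C134W to 158 ± 1.5 in Vectors, and no comparison had a log2 difference beyond -0.08 or 0.08 apart from the difference of FOXO1 effects (0.10). The 95% interval of FOXL2WT against Vectors ran from -0.10 to 0.10. HSPH1, the HSP110 exchange factor, was at 346, 337 and 345 CPM in Vectors and 315, 314 and 319 in FOXL2WT, which did not overlap, a separation shared by 6 members and 15.9% of the genes tested. The difference of -0.12 did not pass the threshold (SE 0.047, edgeR adjusted p = 0.156). HSPH1 stood at 343 ± 10 CPM in FOXL2C134W, 329 ± 17 in FOXL2WT + FOXO1 and 365 ± 25 in FOXL2C134W + FOXO1 (SD, n = 3). Salmon gave 40.2% of its reads to HSPH1-206, a transcript annotated for nonsense-mediated decay.

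HSP90AA1, the inducible cytosolic HSP90, was lower under FOXL2WT than under FOXL2C134W. It was at 1722, 1670 and 1834 CPM in FOXL2WT and 1862, 2054 and 2074 in FOXL2C134W. Vectors lay with the latter at 2020, 1942 and 1952, FOXL2WT + FOXO1 was at 1647, 1850 and 1885, and FOXL2C134W + FOXO1 was at 2090, 1961 and 2347. All FOXL2C134W libraries lay above all FOXL2WT libraries, as for 6 of 10 members and 14.8% of the genes tested. With FOXO1 the same separation held for HSP90AA1 and 3 other members (HSPA8, HSPH1 and HSPD1) and for 7.36% of the genes tested. HSP90AA1 rose by 14.6% in FOXL2C134W against FOXL2WT (log2 0.20, SE 0.061, edgeR adjusted p = 0.0453). With FOXO1 the difference was 0.25 (SE 0.061, 95% interval 0.12 to 0.38, edgeR adjusted p = 0.124). Against Vectors, FOXL2WT differed by -0.18 (edgeR adjusted p = 0.0945) and FOXL2C134W by 0.02 (0.890).

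Of the 13 calls among the members, that of HSP90AA1 was lost in the most leave-outs. It was kept in 7 of 15 leave-outs and lost without Vectors replicate B or C, FOXL2WT replicate A or B, FOXL2C134W replicate B or C, FOXL2WT + FOXO1 replicate B, or FOXL2C134W + FOXO1 replicate A (HSP90AA1 log2 0.17 to 0.20, edgeR adjusted p 0.0509 to 0.172). DESeq2 with offsets for transcript length also lost it (adjusted p = 0.0811).

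**Figure D3:**
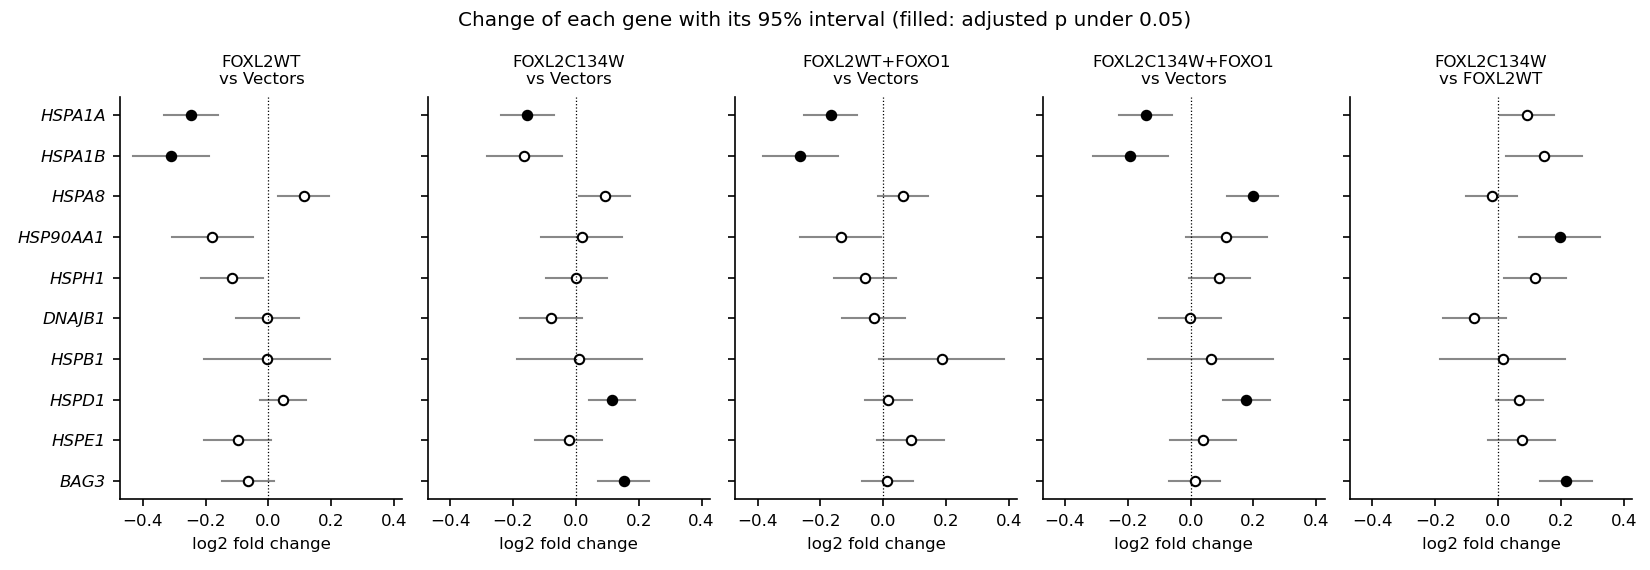
Log2 fold change of each heat shock gene with its 95% interval in 5 comparisons (edgeR); filled symbols passed an adjusted p of 0.05. HSPA1A and HSPA1B lie left of 0 in all 4 comparisons with Vectors, and BAG3 and HSP90AA1 lie right of 0 in FOXL2C134W against FOXL2WT.

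HSPB1, the small heat shock protein HSP27, was the most variable between replicates. Its Vectors libraries were at 261, 302 and 301 CPM and its FOXL2C134W libraries at 347, 266 and 257. FOXL2WT + FOXO1 had the highest mean, 328 ± 24 CPM, but the difference from Vectors of 0.19 had a 95% interval of -0.01 to 0.39 (edgeR adjusted p = 0.328). At this spread, changes of HSPB1 under that size were not detectable.

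HSPD1, the mitochondrial HSP60, rose with FOXL2C134W. It was at 728, 731 and 720 CPM in Vectors, 747, 754 and 748 in FOXL2WT, 768, 794 and 797 in FOXL2C134W, 726, 733 and 745 in FOXL2WT + FOXO1 and 833, 778 and 854 in FOXL2C134W + FOXO1. All 6 libraries with FOXL2C134W thus stood above the other 9, the lowest at 768 and the highest other one at 754. Of the genes tested, 0.685% had this arrangement, and HSPD1 was the 1 member among them. HSPD1 rose by 13.1% in FOXL2C134W + FOXO1 against Vectors (log2 0.18, SE 0.035, edgeR adjusted p = 0.00303), and the call held without any 1 library (adjusted p at most 0.0173). It rose by 8.23% in FOXL2C134W (0.11, SE 0.035, edgeR adjusted p = 0.0349). This smaller call was lost without any 1 of the Vectors libraries or without FOXL2C134W replicate B or C (0.10 to 0.12, adjusted p up to 0.106). HSPD1 also lost it in DESeq2 with transcript length offsets (0.14, adjusted p = 0.116) and with all genes of at least 1 count in any library (edgeR 0.12, adjusted p = 0.0665). The direct difference between the forms of FOXL2 was 0.07 without FOXO1 (edgeR adjusted p = 0.235) and 0.16 with it (SE 0.035, edgeR adjusted p = 0.0815).

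HSPE1, the HSP10 lid of the same chamber, did not follow HSPD1. Both genes lie on chromosome 2, where HSPE1 falls within the annotated span of HSPD1 on the opposite strand, HSPD1 at chr2:197486584-197516737 on the minus strand and HSPE1 at chr2:197500140-197503449 on the plus strand. The first promoter window of HSPD1 (chr2:197500225-197500524) also overlaps that of HSPE1 (chr2:197500129-197500428). HSPE1 was at 110, 119 and 113 CPM in Vectors, 108, 108 and 103 in FOXL2WT, 113, 109 and 115 in FOXL2C134W, 131, 114 and 119 in FOXL2WT + FOXO1 and 123, 116 and 113 in FOXL2C134W + FOXO1. Its largest difference was between FOXL2WT + FOXO1 and FOXL2WT (log2 0.19, SE 0.051, edgeR adjusted p = 0.248). HSPE1 counts are uncertain because its sequence recurs elsewhere. The read-through gene HSPE1-MOB4 received 13.3% to 20.6% as many reads as HSPE1, and the processed copy HSPE1P3 received 2.89% to 7.30%. Of the reads given to HSPE1 itself, 51.5% went to the intron-retaining HSPE1-204 and 45.1% to the coding HSPE1-201.

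Counted by comparison, 2 to 4 of the 10 members were called in 5 comparisons, with log2 differences from -0.31 to 0.22. In FOXL2WT against Vectors 2 of 10 members were called (HSPA1A and HSPA1B), both lower, against 6.07% of all genes tested. These 2 genes share most of their read-length windows, so wherever both are counted the calls are not independent. In FOXL2C134W against Vectors 3 were called (HSPA1A lower, HSPD1 and BAG3 higher), against 14.7%. The counts were 2 in FOXL2WT + FOXO1 against Vectors (both HSPA1 genes, lower), where 3.78% of genes were called, and 4 in FOXL2C134W + FOXO1 against Vectors (both HSPA1 genes lower, HSPA8 and HSPD1 higher), where 9.33% were called. FOXL2C134W against FOXL2WT had 2 (HSP90AA1 and BAG3, higher), against 11.2%. Genes at least as abundant as BAG3, the lowest member, number 3049, and 12.4%, 25.9%, 8.49%, 18.8% and 19.4% of them were called in these 5 comparisons. The comparisons with Vectors share the same 3 control libraries. The median absolute log2 difference of the members ran from 0.08 to 0.11 in the 5 comparisons, beside 0.09 to 0.11 over all genes tested and 0.06 to 0.08 over the genes at least as abundant as BAG3.

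Adding FOXO1 called no member. In FOXL2WT + FOXO1 against FOXL2WT edgeR called 0 of 10, beside 0.0505% of all genes, with 1 member at an unadjusted p under 0.05 and 0 in DESeq2. In FOXL2C134W + FOXO1 against FOXL2C134W it called 0, beside 0.714% of genes, with 2 members at an unadjusted p under 0.05 (BAG3 and HSPA8) and 0 in DESeq2. Between FOXL2C134W + FOXO1 and FOXL2WT + FOXO1 it called 0, beside 0.144%, with 4 at an unadjusted p under 0.05, and DESeq2 called 2 (HSP90AA1 and HSPD1). The difference of the FOXO1 effects gave 0 in edgeR, beside 1.38% of genes, with 2 at an unadjusted p under 0.05 (BAG3 and HSPA8), and 1 in DESeq2 (BAG3).

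The wider chaperone network was taken as 9 lists of 63 other genes, of which 62 were tested (HSF4 was not). It had 5 genes called in FOXL2WT against Vectors, 13 in FOXL2C134W, 2 in FOXL2WT + FOXO1 and 17 in FOXL2C134W + FOXO1, of which 14 were higher. In FOXL2C134W against FOXL2WT 7 were called. These are 8.06%, 21.0%, 3.23%, 27.4% and 11.3% of the network genes tested, to be set beside the 6.07%, 14.7%, 3.78%, 9.33% and 11.2% of all genes and the shares of abundant genes given above. HSF1 itself was at 54.9 ± 1.5 CPM in Vectors and 63.1 ± 4.2 in FOXL2C134W, where it rose (log2 0.20, SE 0.055, edgeR adjusted p = 0.0175). HSBP1, which encodes a binding partner of HSF1, fell there (-0.22, edgeR adjusted p = 0.0412). The 7 other HSP70 and HSP110 genes had HSPA13 lower in both FOXL2C134W conditions against Vectors (-0.19 and -0.15, edgeR adjusted p = 0.00536 and 0.0378), and HSPA4L higher in FOXL2C134W than in FOXL2WT (0.25, edgeR adjusted p = 0.0231).

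Among other mitochondrial chaperones and proteases, more genes were called higher than lower in each comparison with Vectors. Of 11 genes, 3 rose in FOXL2WT, 4 in FOXL2C134W, 2 in FOXL2WT + FOXO1 and 5 in FOXL2C134W + FOXO1 against Vectors. In the same order, 6.07%, 14.7%, 3.78% and 9.33% of all genes tested were called. For the genes at least as abundant as BAG3 the shares were 12.4%, 25.9%, 8.49% and 18.8%. The median log2 differences of the list were 0.15, 0.14, 0.12 and 0.17, beside 0.00 over all genes in each. In FOXL2C134W against FOXL2WT none of the 11 was called (median log2 -0.02). HSPA9, the mitochondrial HSP70, went from 468 ± 12 CPM in Vectors to 548 ± 24 in FOXL2C134W + FOXO1 (log2 0.23, SE 0.038, edgeR adjusted p = 0.000697), and the matrix protease LONP1 from 93.9 ± 0.6 to 115 ± 7.0 in FOXL2C134W (0.30, SE 0.054, edgeR adjusted p = 0.00101). HSCB, a J-domain protein of iron-sulfur cluster assembly, fell in all conditions but FOXL2WT + FOXO1, by 0.41 on the log2 scale in FOXL2C134W (SE 0.076, edgeR adjusted p = 0.0013).

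In the cytosol, 5 of the 8 genes of the chaperonin TRiC, which folds actin and tubulin, rose in FOXL2C134W + FOXO1 against Vectors. They were led by CCT3 (0.16, SE 0.034, edgeR adjusted p = 0.00608). In that comparison 9.33% of all genes tested were called, and 18.8% of the genes at least as abundant as BAG3. The median log2 difference of the list was 0.12 there and 0.08 in FOXL2WT, where none was called, and none was called between FOXL2C134W + FOXO1 and FOXL2C134W. Of 10 HSP90 genes and partners 3 rose in FOXL2C134W + FOXO1 against Vectors, to be set beside the same shares. These were FKBP4 (0.19), STIP1 (0.15) and HSP90AB1 (0.13). STIP1, which hands clients from HSP70 to HSP90, was also higher in FOXL2C134W than in FOXL2WT (0.14, SE 0.037, edgeR adjusted p = 0.0160). The 8 other J-domain genes had DNAJB5 lower in 3 of the 4 comparisons with Vectors, by 0.35 on the log2 scale in FOXL2WT (edgeR adjusted p = 0.0148), and DNAJC7 higher in FOXL2C134W + FOXO1 than in Vectors and in FOXL2C134W than in FOXL2WT (0.19 in each, edgeR adjusted p = 0.0368 and 0.0306). BAG1, which like BAG3 releases HSP70 clients, was lower in FOXL2C134W than in FOXL2WT (-0.29, SE 0.070, edgeR adjusted p = 0.0105), opposite to BAG3. HMOX1, an oxidative stress gene among the 4 other HSF1-linked genes, was lower there too (-0.34, SE 0.075, edgeR adjusted p = 0.00623). HSPB11, listed by name among the 4 other small heat shock genes, was lower in FOXL2C134W than in Vectors (-0.27, edgeR adjusted p = 0.00433). No other gene of that list was called there.

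Chaperones of the endoplasmic reticulum that were called against Vectors were all lower. Of 15 genes, 7 were lower in FOXL2WT, 7 in FOXL2C134W, 6 in FOXL2WT + FOXO1 and 6 in FOXL2C134W + FOXO1 than in Vectors, and none was higher. Of all genes tested, 6.07%, 14.7%, 3.78% and 9.33% were called in these comparisons. Of the genes at least as abundant as BAG3, 12.4%, 25.9%, 8.49% and 18.8% were called. The median log2 differences of the list were -0.14, -0.15, -0.12 and -0.12, beside 0.00 over all genes in each. CALR, the lectin calreticulin, went from 1372 ± 40 CPM in Vectors to 1088 ± 39 in FOXL2WT (log2 -0.34, SE 0.034, edgeR adjusted p = 1.28e-05). HSP90B1, the HSP90 of the endoplasmic reticulum, went from 1289 ± 48 to 1009 ± 35 (-0.35, SE 0.063, edgeR adjusted p = 0.00226). Genes of the ATF4 branch, the response to amino acid shortage and endoplasmic reticulum stress, had 8 of 10 called higher in FOXL2WT than in Vectors. Against Vectors, 6 were higher and 1 lower (ATF3) in FOXL2C134W, 6 higher and 0 lower in FOXL2WT + FOXO1, and 3 higher and 3 lower in FOXL2C134W + FOXO1. In FOXL2C134W against FOXL2WT, 9 of the ATF4 genes were lower, as were 2 of the endoplasmic reticulum chaperones (DNAJB9 and HERPUD1), beside 11.2% of all genes called. The median log2 differences of the ATF4 list were 0.55, 0.21, 0.32 and 0.14 in the 4 comparisons with Vectors. In FOXL2C134W against FOXL2WT its median was -0.29, beside -0.01 over all genes. TRIB3, a target of ATF4, was at 94.8 ± 8.4 CPM in Vectors, 163 ± 17 in FOXL2WT and 123 ± 8.7 in FOXL2C134W (SD, n = 3).

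**Figure D4:**
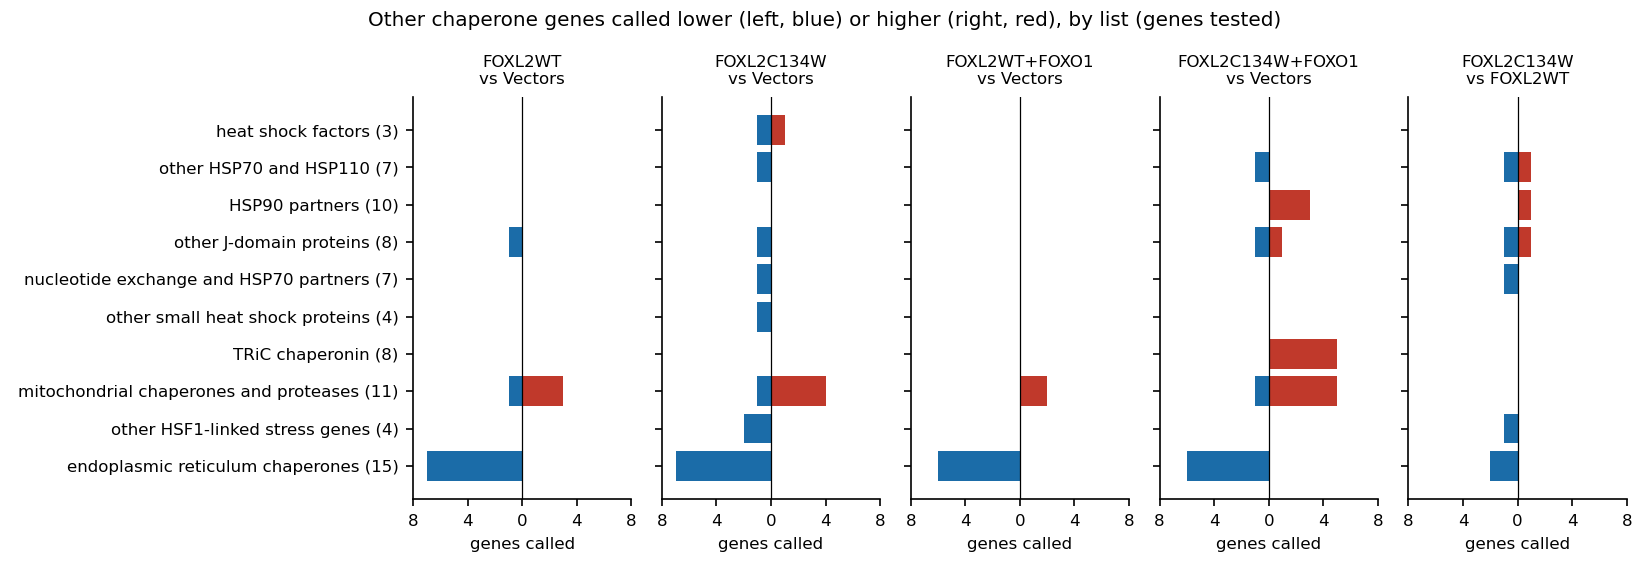
Number of other chaperone and stress genes called lower (blue, left) or higher (red, right) in each list, in 5 comparisons (edgeR, adjusted p under 0.05), with the genes tested in each list in brackets. Mitochondrial chaperones are mostly on the higher side against Vectors, and endoplasmic reticulum chaperones only on the lower side. In FOXL2C134W + FOXO1 against Vectors, 5 TRiC genes were called higher. From left to right, 6.07%, 14.7%, 3.78%, 9.33% and 11.2% of all genes tested were called.

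Among the genes whose log2 CPM followed the sum of HSPA1A and HSPA1B most closely over the 15 libraries were TNFAIP8L1 (Pearson r = 0.912), ZCCHC24 (0.909), CALR (0.899) and FAM3C (0.897). Nearest to HSPD1 were LRPPRC (0.942), ANKRD13A (0.941), GEMIN5 (0.940), NOC3L (0.935) and GMPS (0.927). LRPPRC, which stabilises mitochondrial messages, was at 280 ± 2.9 CPM in Vectors and 339 ± 24 in FOXL2C134W + FOXO1. These correlations are descriptions over libraries that share conditions and sequencing.

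Some of the members varied between replicates with the base composition of the library. The trend of all genes with GC content ran from -0.07 log2 units per 10 points of GC in FOXL2C134W + FOXO1 replicate C to 0.08 in FOXL2C134W replicate A. HSP90AA1 (41.7% GC) and HSPH1 (40.7%) were highest in the library with the most negative trend and lowest in FOXL2WT + FOXO1 replicate A, where the trend was 0.07. HSPB1 (65.0% GC) was highest in that library, and so was HSPE1, although its GC content was the lowest of the members (39.0%). That library also had the most negative trend with transcript length of the 15 (-0.08 log2 units per doubling of length). HSP90AA1 (3368 bases) and HSPH1 (2834) have longer transcripts than HSPB1 (768) and HSPE1 (614). The parts of length and GC content in these levels of single libraries were not tested. Over the 15 libraries HSP90AA1 and HSPH1 had a Pearson correlation of 0.967, which was 0.942 after condition means were removed. With an offset for GC content, the difference of HSP90AA1 between FOXL2C134W and FOXL2WT was 0.20 (SE 0.046, edgeR adjusted p = 0.00713), and that of HSPD1 between FOXL2C134W + FOXO1 and Vectors was 0.17 (SE 0.026, edgeR adjusted p = 0.000255). The same offset brought the difference of HSPA1A between FOXL2C134W + FOXO1 and Vectors to -0.12 (edgeR adjusted p = 0.0600). Over all 11 alternatives the difference of HSP90AA1 between FOXL2C134W and FOXL2WT ran from 0.15 to 0.21, and 10 kept the call. The trend with transcript length was -0.04 to -0.02 in the FOXL2WT libraries and 0.00 to 0.07 in the FOXL2C134W libraries. An offset for gene length kept the HSP90AA1 call, with and without a replicate block. DESeq2 with transcript length offsets lost it (adjusted p = 0.0811). The part of the length trend in this difference was not tested beyond these offsets.

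**Figure D5:**
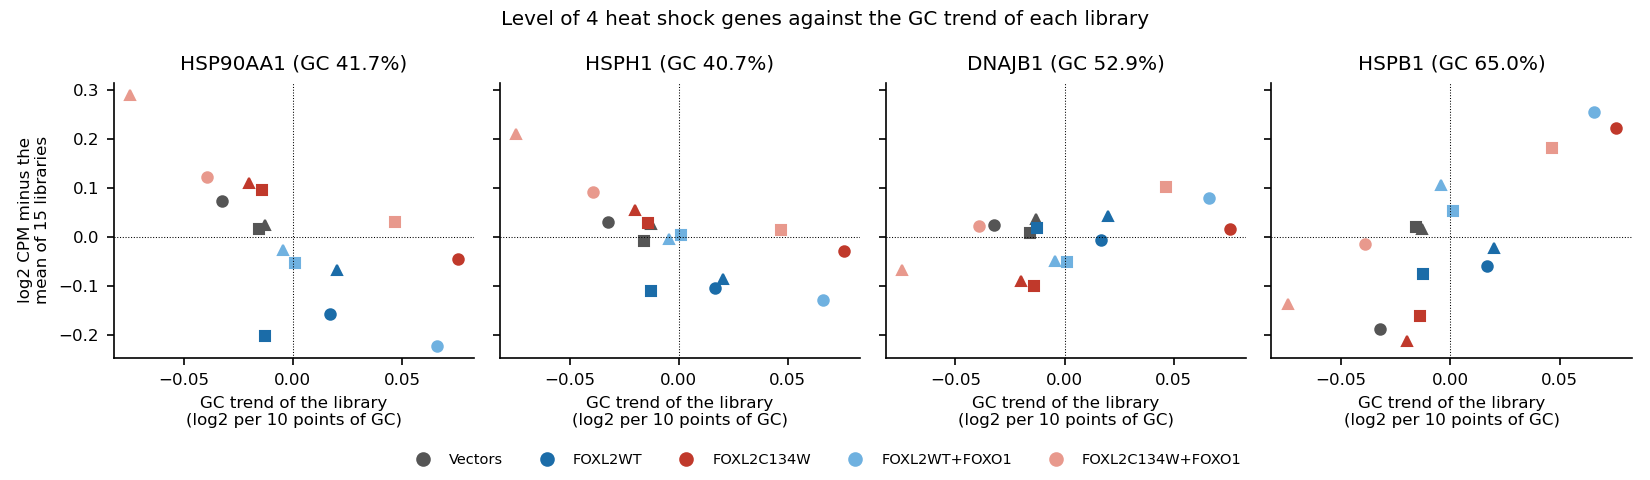
Log2 CPM of 4 heat shock genes in each library, relative to the gene's mean over 15 libraries, against the library's trend with GC content (log2 units per 10 points of GC); color gives the condition and symbols replicates A (circle), B (square) and C (triangle). HSP90AA1 and HSPH1, at 41.7% and 40.7% GC, lie lower at more positive trends, and HSPB1, at 65.0% GC, lies higher.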

How the data were processed

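The authors quantified 75-base single-end reads of 15 libraries with salmon 1.1.0 on hg38 transcripts and deposited a table of estimated counts per gene for 37787 genes, rounded and not normalized, together with salmon's TPM and estimated counts for 227063 transcripts per library. Transcripts were joined to GENCODE 44, which holds 98.4% of them, although the release behind the deposited files is not given in the sources used here. Genes passing filterByExpr (13868) were scaled by TMM, and all 15 libraries were fitted together with edgeR 4.0.16 (quasi-likelihood test) in R 4.3.3. A gene was called where its p, adjusted by Benjamini-Hochberg over all genes tested, was below 0.05. DESeq2 1.42.0, other filters, offsets for gene length and GC content, a replicate block and the leaving out of each library were alternatives. Scripts were tested on simulated data. A count of 0 allows up to 3 counts, which is 0.119 to 0.202 CPM over these libraries. Log2-CPM values for correlations had a prior count of 2. All 10 members are described, with called ones by log2 fold change, SE and adjusted p, and from each other list at most the 2 highest and 2 lowest called genes per comparison were named. The 5 genes nearest to HSPA1A plus HSPA1B and to HSPD1 were ranked by Pearson r, and a gene among them is not reported here. Members and lists were chosen with earlier results of these data known. Figures were drawn with matplotlib 3.10.9.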

Additional observations from a re-analysis of the deposited data

Results flagged for a closer look

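BAG3 was picked out by a rule on library order, which asked that FOXO1 separate all libraries in opposite directions under the 2 forms of FOXL2. Every FOXL2C134W + FOXO1 library was below every FOXL2C134W library, and every FOXL2WT + FOXO1 library was above every FOXL2WT library. This separation is the rule itself and adds no support, and 1.41% of the genes tested shared it. Neither effect was called (edgeR adjusted p = 0.107 with FOXL2C134W and 0.582 with FOXL2WT). The difference between the effects was -0.22 on the log2 scale (edgeR adjusted p = 0.0586, which misses the threshold). Over the alternatives the adjusted p for BAG3 ran from 0.0334 in DESeq2 to 0.199 with genes of at least 1 count in any library. FOXO1 itself stood at 117 CPM in FOXL2WT + FOXO1 and 43.2 in FOXL2C134W + FOXO1, FOXL2 and SMAD3 levels differed too, and their part was not tested.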

How the results depend on the processing

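No call changed direction under any alternative. Of the 13 called member results, the following passed in all 11 alternatives and all 15 leave-outs. Against Vectors these were HSPA1A and HSPA1B in FOXL2WT, and HSPA8 and HSPD1 in FOXL2C134W + FOXO1. Against FOXL2WT it was BAG3 in FOXL2C134W. For HSPA1A and HSPA1B the 11 alternatives include the test of their sum, whose result stood for both genes. The number of members called moved as follows, and the cause was not tested. In FOXL2WT against Vectors it was 5 when only these conditions were fitted. In FOXL2C134W against Vectors it was 5 with a gene length offset and 5 with the replicate block and that offset. In FOXL2WT + FOXO1 it was 4 against Vectors and 2 against FOXL2WT with genes of at least 1 count in any library. In FOXL2C134W against FOXL2WT it was 1 in DESeq2 with transcript length offsets. Between the conditions with FOXO1 it was 2 in DESeq2, 1 in DESeq2 with length offsets, 4 with at least 1 count, 3 with a gene length offset, 1 with a GC offset and 2 with the replicate block and length offset. For the difference of the FOXO1 effects it was 1 in DESeq2 with and without length offsets, with at least 10 counts in every library and with a gene length offset.

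Leaving out 1 library gave 2 to 2 members in FOXL2WT against Vectors, 1 to 4 in FOXL2C134W, 0 to 2 in FOXL2WT + FOXO1 and 2 to 4 in FOXL2C134W + FOXO1, 1 to 2 in FOXL2C134W against FOXL2WT, 0 to 1 between the conditions with FOXO1 and 0 to 1 for the difference of the FOXO1 effects. The letters A, B and C did not pair the libraries, since 2 of 30 same-letter correlations passed 0.1, and the replicate block alone left the member counts as they were, at 2 in FOXL2WT and 3 in FOXL2C134W against Vectors. Over the alternatives the genes called ran from 496 to 1690 in FOXL2WT against Vectors (842 as reported), 971 to 2464 in FOXL2C134W (2041), 410 to 954 in FOXL2WT + FOXO1 (524), 743 to 1789 in FOXL2C134W + FOXO1 (1294), 764 to 2041 in FOXL2C134W against FOXL2WT (1560), 7 to 260 for FOXO1 with FOXL2WT (7), 32 to 463 with FOXL2C134W (99), 9 to 446 between the conditions with FOXO1 (20) and 126 to 551 for the difference of the effects (192).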
